A study of Mus musculus with 34 samples.

Results

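Cardiac fibroblasts of newborn mice that had been given Mef2c, Gata4 and Tbx5 by retrovirus (MGT) were set against fibroblasts given LacZ on the same day, 7 days into the course. The comparison is defined by the sample titles and takes 4 of the 34 arrays of the series, 2 for MGT and 2 for LacZ. Both groups were of the CD1 strain and carried aMHC-GFP, a reporter in which a cardiac myosin promoter drives green fluorescent protein. By the labels' protocol, newborn cardiac fibroblasts and cardiomyocytes were taken from pups of postnatal day 1.5. The MGT virus held the 3 factors in a single polycistronic transgene. Total RNA was read on Agilent mouse arrays in 1 colour. The labels name no sorting step, no culture medium for these cultures and no separate litters or dishes, so a p-value here measures only the spread between samples, which may be technical. Every array reads the pooled RNA of a sample, in which a larger share of cells of a type and more RNA per cell cannot be told apart. Day 5 and day 10 MGT and LacZ arrays, fibroblasts at day 0 (CF D0) and freshly isolated newborn cardiomyocytes (neoCM), all of the same strain and genotype, serve for comparison and also have 2 arrays each. The CF D0 and neoCM arrays lay on other slides and scan days than the day 7 arrays. Day 7 levels set beside theirs were not tested, and slide and cell type cannot be told apart there.

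Mef2c, Gata4 and Tbx5 are transcription factors of the developing heart, and fibroblasts that carry all of them can turn on part of the cardiomyocyte programme without passing through a stem cell state. A beating cardiomyocyte needs contractile filaments, calcium stores that are filled and emptied with each beat, electrical junctions to its neighbours and mitochondria that burn fat. Fibroblasts make collagen and other matrix instead, and answer to growth factor signals of the TGF-beta, Wnt and Notch families.

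All levels below are log2 intensities relative to the array's own 75th percentile, given for replicate 1 and then replicate 2, and a change is the MGT mean minus the LacZ mean with its standard error. A gene was called when limma's adjusted p lay under 0.05 and the change was at least 2-fold. The spread came from all 34 arrays. Both day 7 groups had replicates that correlated closely over genes, with r of 0.996 for MGT and 0.995 for LacZ, and 36270 to 39040 spots per array well above background. The 2 arrays of one other group, iPSC-derived cardiomyocytes at day 29 (iPSC2-CM D29), correlated at only 0.895, against 0.984 to 0.997 for every other group, and they widen the standard errors of genes that differ between them. Counts without those 2 arrays, an alternative chosen after seeing the data, are given for the lists whose counts they move by more than 1.5 times. That alternative raised the day 7 calls over all 19412 genes tested as well, from 1031 to 1222 higher and from 665 to 1048 lower. Its list counts are to be set beside those totals.

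Of 19412 genes tested, 1031 (5.31%) were called higher and 665 (3.43%) lower in MGT cultures at day 7, together 8.74%. The day 7 list counts below are to be read beside these shares. The median change over all genes was -0.07. The large changes ran upward: 299 of the genes called higher changed at least 8-fold, against 49 of those called lower, and 98 against 0 changed at least 32-fold. The called changes reached from -4.91 to 11.67. For 252 genes called higher no probe was above background on either LacZ array, and the same held on the MGT side for 116 genes called lower. With a single day 7 array left out, the calls that remained in all 4 such fits were 724 higher and 367 lower.

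**Figure D1:**
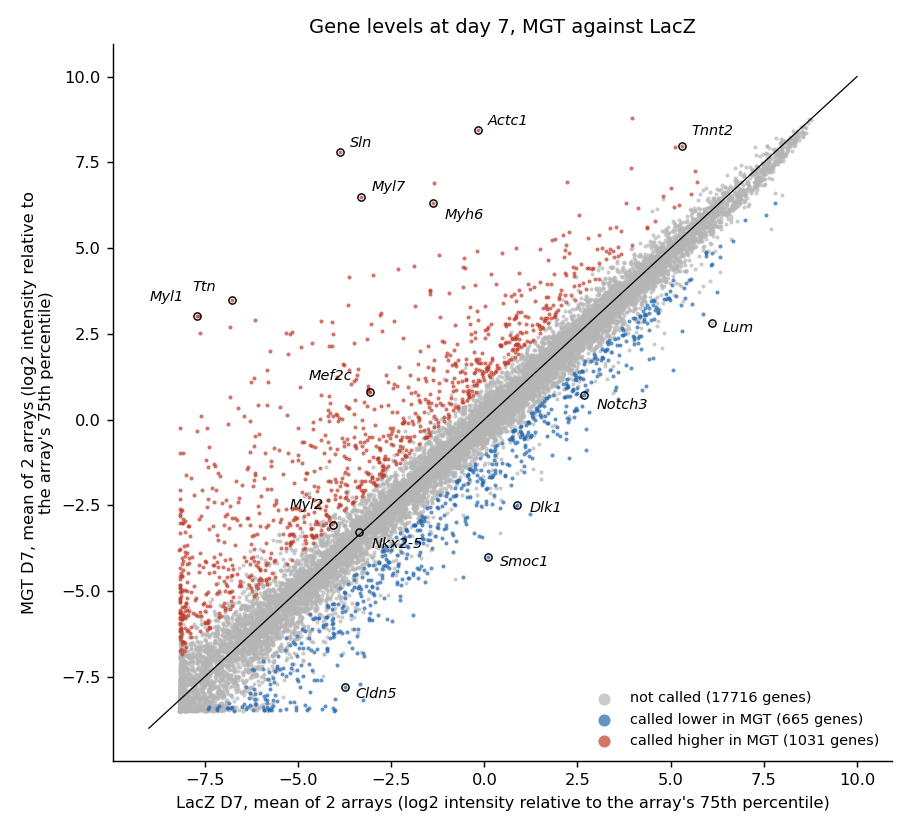
Each point is 1 gene, with its mean level in the 2 LacZ arrays on the horizontal axis and in the 2 MGT arrays on the vertical axis, both as log2 intensity relative to the 75th percentile of the array, and the line marks equal levels. Red points (1031) were called higher and blue points (665) lower in MGT. The points farthest above the line are muscle genes such as Sln and Myl1, and values along the lower edges are at the background of the arrays.

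The probes of the delivered factors gave unequal changes. Mef2c stood at 0.84 and 0.74 in the MGT arrays and at -2.90 and -3.24 in the LacZ arrays. Both MGT arrays lay far above both LacZ arrays, a change of 3.86 ± 0.46 (adjusted p = 4.2e-06, limma). Gata4 was already bright in the controls, with 3.35 and 3.31 in MGT and 2.80 and 2.81 in LacZ, and its change of 0.53 ± 0.17 was under 2-fold (adjusted p = 0.037, limma). Tbx5 read -0.96 and -1.03 in MGT and -1.25 and -1.16 in LacZ, which was not past the threshold (0.21 ± 0.32, adjusted p = 0.81, limma). Each factor has 1 named probe, and whether that probe reads the transgene, the cell's own transcript or both was not tested. The Mef2c difference was 6.78 at day 3, 4.54 at day 5, 3.59 at day 10 and 2.26 at day 14. Day 14 is the only day of the course on which MGT and LacZ lay on different slides.

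A minority of the other cardiac transcription factors were called. Of 25 tested, 4 were higher and 1 lower, where 5.31% and 3.43% of all genes were, and the median change was -0.17 against -0.07 for all genes. Without the iPSC2-CM D29 arrays 4 were higher and 3 lower. The homeodomain protein Hopx, a regulator of cardiac growth, read 1.34 and 1.57 in MGT and -3.60 and -3.68 in LacZ. Its groups were far apart, at 34.3-fold (5.10 ± 0.50, adjusted p = 3.3e-07, limma). Myocd, or myocardin, which partners serum response factor on muscle genes, read 0.52 and 0.37 against -1.96 and -1.96 (2.40 ± 0.42, adjusted p = 0.00039, limma). Ankrd1, a stress-responsive protein of the nucleus and sarcomere, was bright in both groups, at 7.29 and 7.23 against 5.56 and 5.74 (1.61 ± 0.34, adjusted p = 0.0023, limma). Tbx18, a factor of the epicardium and sinus node, was called at 1.30 ± 0.39 (adjusted p = 0.031, limma) but in none of the fits that left out a day 7 array, where its adjusted p ran from 0.11 to 0.15. The gene called lower was Hey2, a Notch-responsive repressor of the ventricle, which read -5.61 and -5.56 in MGT and -3.98 and -3.49 in LacZ. Its change of -1.85 ± 0.34 shrank to -0.75 with the normexp background correction and then fell short of 2-fold.

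Several core factors showed no difference past the threshold. Nkx2-5, the early cardiac homeobox factor, read -3.21 and -3.35 in MGT and -3.48 and -3.24 in LacZ. The groups overlapped (0.08 ± 0.57, adjusted p = 0.97, limma), and neoCM averaged 4.85. Tbx20 stood at 4.11 and 3.99 in MGT and 4.17 and 4.36 in LacZ, close to its neoCM mean of 4.06 in both. For Hand2, a factor of the right ventricle and outflow tract, the values were 1.04 and 1.05 against 1.61 and 1.77 (-0.64 ± 0.62, adjusted p = 0.65, limma).

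Most genes of the contractile apparatus were called higher. Of 32 sarcomere genes tested, 24 were called higher and 0 lower, and the list median was 4.36 against -0.07 for all genes. All 24 were also called higher in neoCM than in CF D0, where 22.6% of all genes were. With a day 7 array left out, 22 to 23 of the list were called. Where no probe of a gene was well above background on either array of the lower side, a lower bound of the fold is given: the bright group's mean against, on each dim array, the higher of the gene's own value and the lowest signal among probes well above background.

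Among thick filament genes, titin, Ttn, the giant spring that centres the myosin filament, read 3.48 and 3.51 in MGT and -6.85 and -6.66 in LacZ, where neither array was above background. It was at least 686-fold higher (adjusted p = 2.3e-11, limma), and its 4 probes gave changes from 6.41 to 10.25. Alpha myosin heavy chain, Myh6, whose promoter also drives the reporter, stood at 6.42 and 6.20 against -1.28 and -1.45. That is 204-fold (7.67 ± 0.28, adjusted p = 2e-13, limma), and the MGT arrays still lay under the neoCM mean of 8.65. Its other probe gave a change of 4.36. Beta myosin heavy chain, Myh7, read -0.61 and -1.07 in MGT and -3.78 and -3.09 in LacZ, and averaged 8.13 in neoCM. Its call (2.60 ± 0.61, adjusted p = 0.0053, limma) was lost without MGT replicate 1 (adjusted p = 0.064) and without LacZ replicate 1 (adjusted p = 0.072). The myosin-binding protein Mybpc3 rose by 5.11 ± 0.32, and the M-band protein Myom2, at 6.96 and 6.84 against -1.45 and -1.26, by 8.25 ± 0.49.

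Light chains split by chamber. The atrial regulatory light chain Myl7 read 6.49 and 6.49 in MGT and -3.12 and -3.50 in LacZ. The change was 893-fold (9.80 ± 0.46, adjusted p = 7.8e-12, limma) and brought Myl7 within about 1 log2 unit of its neoCM mean of 7.52. Myl4, the atrial essential light chain, stood at 8.86 and 8.73 against 3.92 and 4.00 (4.84 ± 0.17, adjusted p = 1.3e-13, limma), level with its neoCM mean of 8.70. The ventricular pair was not called. Myl2 read -2.95 and -3.19 in MGT, -4.18 and -3.96 in LacZ and 8.50 on average in neoCM (1.00 ± 0.49, adjusted p = 0.22, limma). Myl3 read -3.27 and -3.36 against -3.70 and -3.78, with a neoCM mean of 8.88 (0.43 ± 0.54, adjusted p = 0.75, limma). Both ventricular light chains were brighter at day 0, at 1.11 for Myl2 and 1.36 for Myl3, than in either day 7 group.

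Thin filament genes rose together. Cardiac actin, Actc1, was among the brightest at 8.52 and 8.36 in MGT, with -0.27 and -0.06 in LacZ. It rose 389-fold (8.60 ± 0.25, adjusted p = 2.5e-14, limma) and stood near its neoCM mean of 8.98. Cardiac troponin I, Tnni3, read 2.41 and 2.60 against -5.25 and -5.17 (7.72 ± 0.53, adjusted p = 2e-09, limma), and averaged 7.17 in neoCM. Its fetal counterpart Tnni1 rose by 4.61 ± 0.63 and cardiac troponin C, Tnnc1, by 5.37 ± 0.41. Cardiac troponin T, Tnnt2, was already bright in the LacZ cultures, at 5.32 and 5.30, and at 8.02 and 7.94 in MGT it stood near the neoCM mean of 8.11 (2.67 ± 0.31, adjusted p = 3.2e-06, limma). Among Z-disc genes, Tcap, the cap of titin, rose by 6.92 ± 0.32. Csrp3, a Z-disc stretch sensor, read 2.57 and 2.48 against -6.81 and -8.47 and was at least 351-fold higher. Alpha-actinin 2, Actn2, was at least 51.1-fold higher and the filament nucleator Lmod2 at least 30.8-fold.

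**Figure D2:**
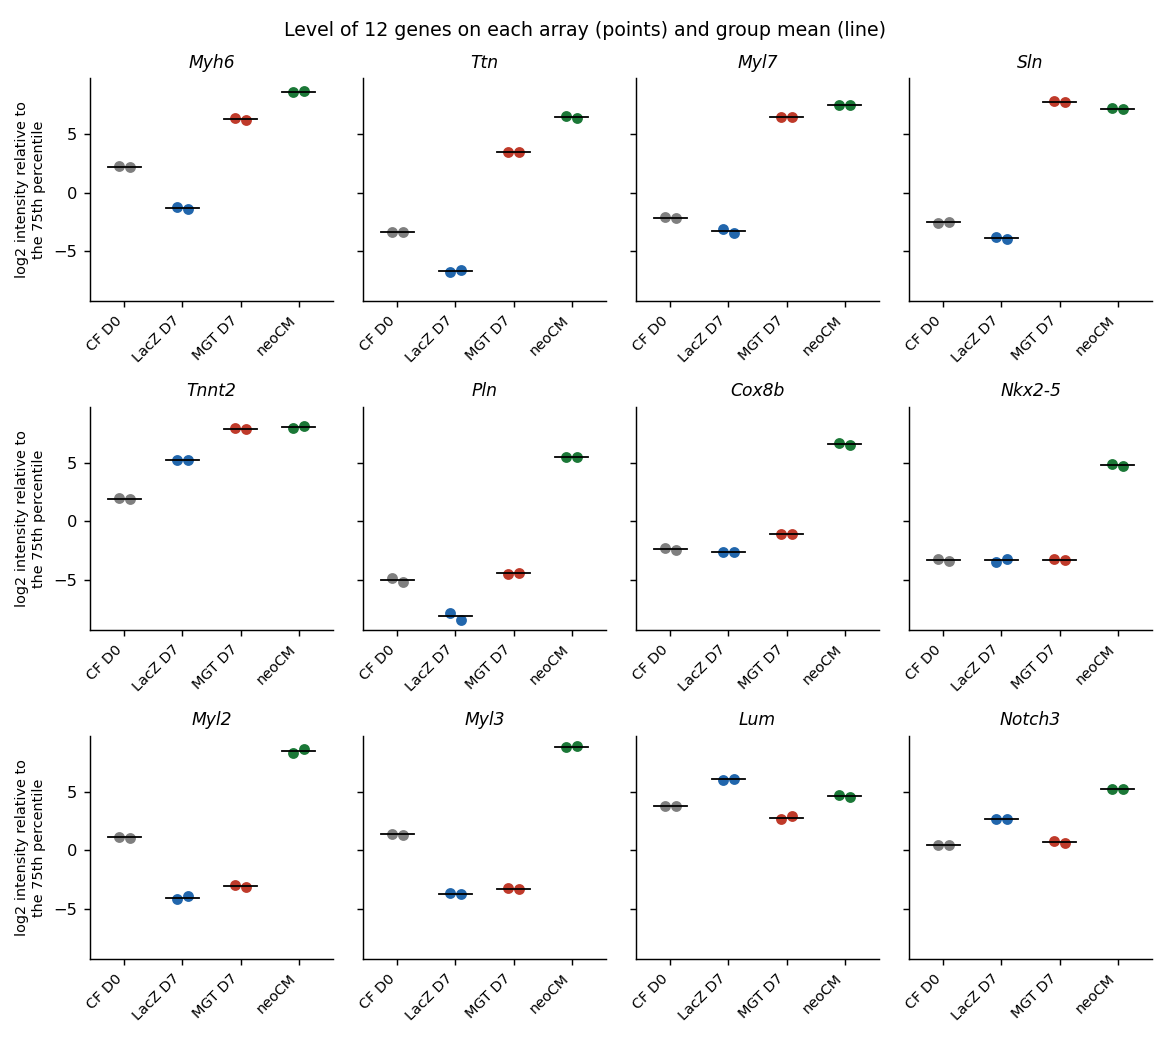
Levels of selected genes on each of the 2 arrays (points) of CF D0, LacZ D7, MGT D7 and neoCM, as log2 intensity relative to the 75th percentile of the array, with the group mean as a line. Myh6, Ttn, Myl7 and Sln are high in MGT and neoCM; Nkx2-5, Myl2 and Myl3 are high only in neoCM among the groups drawn, and the MGT points of Lum and Notch3 lie under the LacZ points.

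Sequences before the start sites of the muscle genes with the largest changes that hold a match to a motif of the delivered factors are shown, since those genes rose together. They are RefSeq promoter sequences on GRCm38.p6, 5′ to 3′ on the gene's strand, with the match in capitals. Smpx lies at chrX:157698807-157698896 on the plus strand and its match starts 126 bases before the start site. For Ttn the stretch is chr2:76982664-76982753 on the minus strand, 166 bases before the start. Csrp3, with 2 promoters in the table, is shown at chr7:48843788-48843875 on the minus strand, 164 bases before. The Tnni3 stretch is chr7:4522682-4522769 on the minus strand, 201 bases before.
Smpx, MEF2 match: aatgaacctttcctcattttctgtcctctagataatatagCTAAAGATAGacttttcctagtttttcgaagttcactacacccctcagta
Ttn, MEF2 match: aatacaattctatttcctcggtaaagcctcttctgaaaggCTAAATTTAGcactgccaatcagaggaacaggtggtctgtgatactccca
Csrp3, T-box match: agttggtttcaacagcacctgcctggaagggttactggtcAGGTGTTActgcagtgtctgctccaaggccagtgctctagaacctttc
Tnni3, T-box match: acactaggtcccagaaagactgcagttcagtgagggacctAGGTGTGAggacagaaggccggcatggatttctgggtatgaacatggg
The letters searched on both strands, from 250 bases before to 50 after the start, were CTA and TAG with any 4 bases between them for MEF2, AGATAAG for GATA and AGGTGTNA for T-box factors. The MEF2 letters occurred in 3.69% of all 32851 promoters in the table, GATA in 3.04% and T-box in 3.03%. Among genes called higher that had a promoter (779), 5.91% held the MEF2 letters, 2.70% GATA and 4.24% T-box. Among the 463 called lower the shares were 3.24% for MEF2, 4.10% for GATA and 2.81% for T-box. Over all 14779 genes tested that had a promoter they were 3.94%, 2.80% and 3.13%. Of 36 sarcomere and calcium genes called higher, 29 had a promoter, and 5 of those held MEF2, 2 T-box and 0 GATA letters. These matches describe the letters of the window and were given no test.

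Genes known from skeletal muscle were called higher as well. Of 26 tested, 13 were called higher and 0 lower, with a median change of 1.5 against -0.07 for all genes. Of those 13, 11 were also called higher in neoCM than in CF D0, where 22.6% of all genes were. Taking each dim gene at its bound, the median is 1.00. Myl1, a light chain of fast muscle, read 2.86 and 3.20 in MGT and -7.08 and -8.36 in LacZ. It was at least 498-fold higher (adjusted p = 2.9e-13, limma), with 6.14 and 10.75 as the changes of its 2 probes. Fast troponin T, Tnnt3, stood at 1.55 and 1.69 against -3.72 and -3.89 (5.42 ± 0.43, adjusted p = 1.6e-08, limma), above its neoCM mean of -1.67. Myh1, a fast myosin heavy chain, read 3.06 and 2.93 against -0.48 and -0.41 (3.44 ± 0.73, adjusted p = 0.0022, limma), while neoCM averaged -7.73. Desmin, Des, the intermediate filament of all muscle, rose by 5.20 ± 0.51 and the perinatal myosin Myh8 by 5.09 ± 0.53. The neoCM means of Myl1 (5.25) and Myh8 (6.89) lay above the MGT arrays, and that of Des (2.85) lay under them. The myogenic master factor Myod1 was not called, at -4.74 and -4.74 in MGT and -5.15 and -5.39 in LacZ (0.52 ± 0.30, adjusted p = 0.31, limma). Probes of related myosin genes can share signal, and their contribution to each other's values was not tested.

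Genes of calcium release and reuptake followed the sarcomere. Of 22 tested, 12 were called higher and 1 lower, with a median change of 1.21 against -0.07 for all genes. The largest called change of all was Sln, or sarcolipin, a brake on the calcium pump found in atrial muscle. It read 7.82 and 7.76 in MGT and -3.82 and -3.95 in LacZ. No array of either group came near the other (11.67 ± 0.56, adjusted p = 9.7e-12, limma), and the MGT arrays lay above the neoCM mean of 7.18. The calcium release channel Ryr2 read 1.44 and 1.46 against -5.58 and -6.10 and was at least 156-fold higher. Casq2, the calcium buffer of the store, stood at 4.54 and 4.39 against -1.99 and -1.76 (6.34 ± 0.21, adjusted p = 7.2e-14, limma). Triadin, Trdn, which anchors that buffer to the channel, rose by 5.74 ± 0.58, though its 3 probes ranged from 1.45. The pump itself, Atp2a2, read 5.30 and 5.21 against 1.95 and 1.86 (3.35 ± 0.54, adjusted p = 0.00014, limma). Smpx, a small muscle protein under mechanical load, was at least 498-fold higher at its brightest probe, and its other probe gave a change of 1.48.

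Phospholamban, Pln, the pump inhibitor of ventricular muscle, was only just visible. It read -4.48 and -4.47 in MGT and was not above background in LacZ, at -7.86 and -8.43. It was at least 2.75-fold higher (adjusted p = 1.4e-05, limma), with a neoCM mean of 5.50. The surface calcium channel Cacna1c rose by 1.76 ± 0.29. In the opposite direction, Cacna1g, a T-type calcium channel of pacemaker cells, read -4.96 and -4.96 in MGT and -3.48 and -3.62 in LacZ (-1.41 ± 0.18, adjusted p = 1.3e-05, limma). That call ended with the normexp background correction, under which the change was -0.69. The sodium-calcium exchanger Slc8a1 was not called, at -2.12 and -2.33 against -3.26 and -2.88 (0.84 ± 0.47, adjusted p = 0.31, limma).

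Membrane channels were called in part. Of 17 sodium, potassium and pacemaker channels tested, 7 were called higher and 0 lower, and the median was 0.97. With the normexp background correction 4 were called higher. Kcnj5, a subunit of the atrial acetylcholine-gated potassium channel, read 2.83 and 2.75 in MGT and 0.16 and 0.19 in LacZ (2.62 ± 0.39, adjusted p = 5.6e-05, limma). Kcnd2, of the transient outward current, was at least 18.1-fold higher.

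Of 7 natriuretic peptide genes, 3 were called higher and 2 lower. Nppa, the atrial natriuretic peptide, read 1.68 and 1.80 in MGT and -0.63 and -0.79 in LacZ, and averaged 8.62 in neoCM. The MGT arrays were thus above LacZ by 2.45 ± 0.34 (adjusted p = 2.3e-05, limma) and far under the newborn cells. Corin, the protease that activates the peptide, was at least 51.3-fold higher. The calls of Nppb, at 1.84 ± 0.60 (adjusted p = 0.046, limma), and of the clearance receptor Npr3, at -3.01 ± 0.78 (adjusted p = 0.011, limma), were lost in each of the 4 fits with a day 7 array left out, with adjusted p from 0.12 to 0.23 and from 0.052 to 0.076. The other gene called lower, Nppc, was not above background on any day 7 array, and no natriuretic gene was called lower in those fits.

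Junction genes lay on the higher side. Of 17 intercalated disc genes tested, 10 were called higher and 0 lower, all 17 changes were above 0 and the median was 1.81. Desmoplakin, Dsp, which ties desmosomes to the cytoskeleton, read 4.82 and 4.75 in MGT and -1.23 and -1.22 in LacZ. That is 64.5-fold (6.01 ± 0.36, adjusted p = 3.1e-10, limma), to a level above its neoCM mean of 3.99. Connexin 43, Gja1, the main ventricular gap junction protein, stood at 1.22 and 1.08 against -1.41 and -1.33 (2.51 ± 0.20, adjusted p = 1.4e-08, limma). The atrial connexin Gja5 rose by 2.58 ± 0.37 at its brighter probe and by 0.71 at its other probe. Popdc2, a cAMP-binding membrane protein, rose by 2.61 ± 0.48, and Xirp2, an actin-binding protein of the disc, was at least 7.04-fold higher. N-cadherin, Cdh2, was bright in both groups, at 5.83 and 5.66 against 5.11 and 5.09, and its change of 0.64 ± 0.15 was under 2-fold (adjusted p = 0.0047, limma).

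Energy genes fell into muscle-specific buffers, the common respiratory chain, fat and sugar use. Of 13 muscle energy buffering genes, 9 were called higher and 0 lower, with a median of 1.77. Myoglobin, Mb, the oxygen store of muscle, read 2.86 and 2.96 in MGT and -6.92 and -5.40 in LacZ, where 1 array was above background (9.07 ± 0.39, adjusted p = 3e-12, limma). Muscle enolase, Eno3, stood at 5.43 and 5.48 against 2.22 and 2.33 (3.18 ± 0.15, adjusted p = 1.1e-11, limma), and Pgam2, the muscle phosphoglycerate mutase, rose by 4.08 ± 0.53. Cox8b, a muscle subunit of cytochrome oxidase, read -1.11 and -1.04 against -2.66 and -2.67 (1.59 ± 0.21, adjusted p = 1.6e-05, limma), with a neoCM mean of 6.68. Another muscle subunit, Cox6a2, was not called, at -0.30 and 0.02 against -0.47 and -0.31 (0.25 ± 0.39, adjusted p = 0.81, limma), with 7.56 in neoCM.

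Of 25 respiratory chain genes, 0 were called either way by limma, 1 had an unadjusted p under 0.05 in each direction, and the median was 0.03. The count was also 0 under each of the 18 other settings. In neoCM against CF D0, 18 of the 25 were higher. Of the fatty acid oxidation genes, 6 of 29 were called higher and 1 lower, with a median of 0.14. The orphan receptor Esrrg, which drives oxidative metabolism, read -1.90 and -1.92 in MGT and -7.12 and -5.89 in LacZ, of which 1 was above background (4.60 ± 0.56, adjusted p = 5.8e-06, limma). Ppargc1a, the coactivator of mitochondrial biogenesis, stood at -1.74 and -2.35 against -3.98 and -3.95 (1.92 ± 0.23, adjusted p = 4.4e-06, limma). Acaa2, the thiolase of the last step of beta-oxidation, read 6.16 and 6.16 against 3.99 and 4.27 (2.03 ± 0.20, adjusted p = 2.5e-07, limma). Cpt1b, the muscle gate for fatty acid entry, was not called (0.70 ± 0.32, adjusted p = 0.17, limma). Glycolysis gave 1 call each way of 22, near the shares of all genes (5.31% higher and 3.43% lower), with a median of -0.13. The insulin-responsive glucose transporter Slc2a4 rose by 2.93 ± 0.50 and the lactate exporter Slc16a3 fell by 1.23 on the log2 scale (SE 0.24).

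Of 14 splicing regulators, 3 were called higher and 0 lower, where 5.31% and 3.43% of all genes were, and the median was 0.01. Rbm24, a muscle splicing activator, read 1.16 and 1.03 in MGT and -6.19 and -6.36 in LacZ and was at least 130-fold higher (adjusted p = 6.9e-12, limma). Rbm20, which sets titin splicing, was at least 15.3-fold higher. Qk, or quaking, stood at 4.37 and 4.18 against 2.42 and 2.36 (1.88 ± 0.27, adjusted p = 3.7e-05, limma), and its 5 probes ranged down to 0.33. Of 19 polycomb and DNA methylation genes, 1 was called higher, near the 5.31% of all genes. The gene called was Tet1, a 5-methylcytosine oxidase, at -0.18 and -0.49 against -2.17 and -2.46 (1.98 ± 0.44, adjusted p = 0.0034, limma). Bmi1, a polycomb subunit, read 2.65 and 2.64 in MGT and 2.56 and 2.61 in LacZ (0.06 ± 0.13, adjusted p = 0.87, limma).

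**Figure D3:**
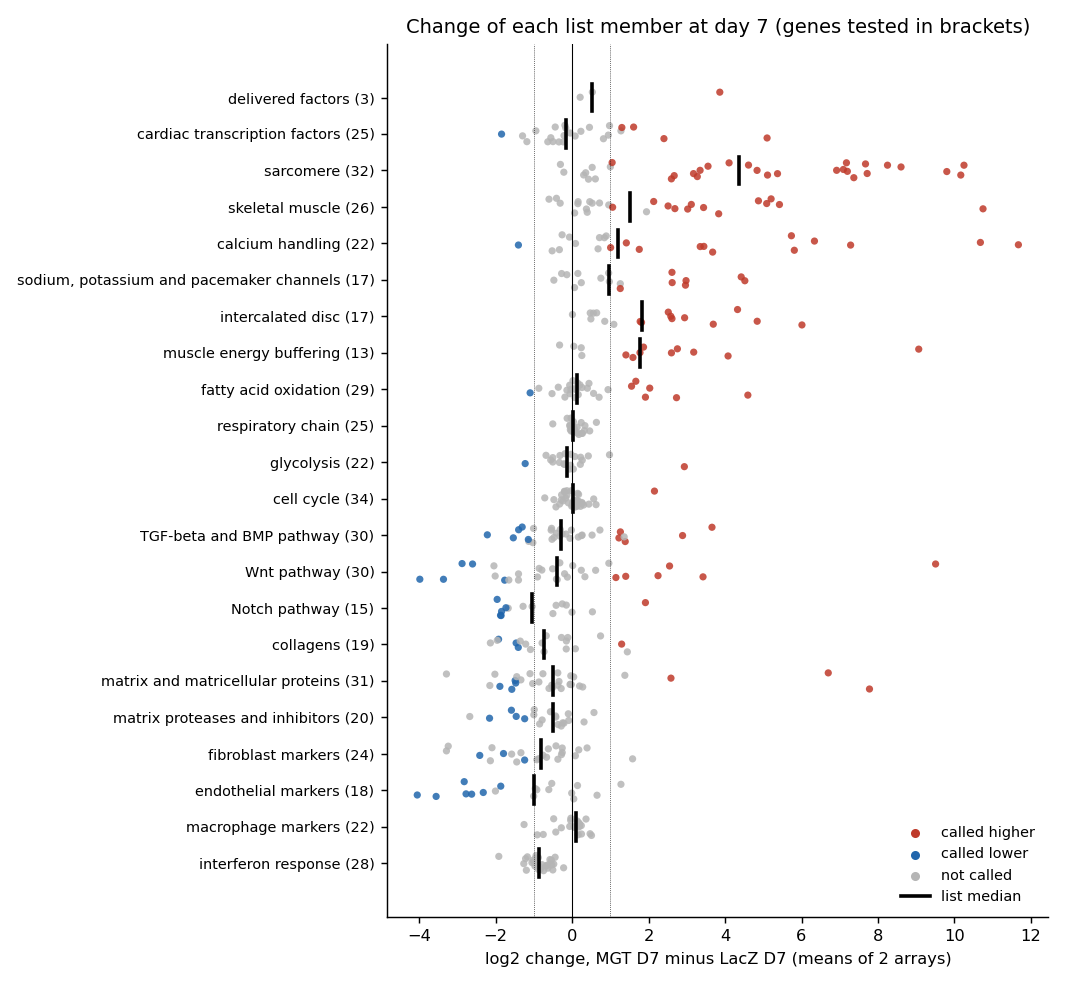
Each point is the log2 change of 1 gene, MGT mean minus LacZ mean of 2 arrays each at day 7, in rows by gene list with the number of genes tested in brackets, and the black bar is the list median. Medians run from 4.36 for the sarcomere to -1.05 for the Notch pathway, and the respiratory chain sits at 0.03. Dotted lines mark 2-fold.

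Fibroblast and matrix genes were lower at the median. Of 24 fibroblast markers, 0 were called higher and 3 lower, where 5.31% and 3.43% of all genes were, and the median was -0.82. Without the iPSC2-CM D29 arrays, 1 was called higher and 10 lower. The median level of the list was 2.92 and 2.97 in MGT and 4.01 and 4.08 in LacZ. Fap, the fibroblast activation protein, read -1.13 and -1.13 in MGT and 1.22 and 1.37 in LacZ (-2.42 ± 0.50, adjusted p = 0.0017, limma). Snai1, a factor of mesenchymal transition, stood at 0.33 and 0.47 against 2.12 and 2.28 (-1.80 ± 0.21, adjusted p = 3.4e-06, limma). Pdgfra, the receptor that marks cardiac fibroblasts, read 1.67 and 1.63 against 3.25 and 3.22. The groups were well apart, yet the pooled standard error left it uncalled (-1.58 ± 0.63, adjusted p = 0.11, limma). Vim, or vimentin, was bright throughout, at 8.01 and 7.92 in MGT and 7.57 and 7.58 in LacZ (0.39 ± 0.22, adjusted p = 0.31, limma). Tcf21, a factor of cardiac fibroblasts, read 2.80 and 2.95 against 3.44 and 3.65 (-0.67 ± 0.82, adjusted p = 0.74, limma).

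Collagens split. Of 19 tested, 1 was called higher and 3 lower, or 2 and 8 without the iPSC2-CM D29 arrays, and the median was -0.74. The main fibrillar chain Col1a1 read 7.45 and 7.32 in MGT and 7.32 and 7.27 in LacZ (0.08 ± 0.32, adjusted p = 0.94, limma). Col3a1, at 5.35 and 5.74 against 7.66 and 7.71, did not overlap between groups but was uncalled (-2.14 ± 0.85, adjusted p = 0.11, limma). Col6a2, of beaded microfibrils, stood at 1.23 and 1.12 against 2.66 and 2.63 (-1.47 ± 0.16, adjusted p = 1.6e-06, limma). Col5a3 was lower by 1.93 ± 0.30, with a log2 change of -1.93. Col12a1, a fibril-associated chain, went the other way, at 3.70 and 3.55 against 2.39 and 2.27 (1.29 ± 0.19, adjusted p = 4e-05, limma).

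Other matrix proteins were called in both directions. Of 31 tested, 3 were called higher and 4 lower, or 4 and 11 without the iPSC2-CM D29 arrays, with a median of -0.51. Thbs4, a thrombospondin of tendon and heart, read 4.34 and 3.94 in MGT and -3.66 and -3.61 in LacZ, 220-fold (7.78 ± 0.28, adjusted p = 2e-13, limma). Abi3bp, a matrix protein that binds cells, stood at 4.36 and 4.40 against -2.38 and -2.26 (6.70 ± 0.90, adjusted p = 1.8e-05, limma). Both lay above their neoCM means of 2.81 for Thbs4 and 2.44 for Abi3bp. Cthrc1, a secreted protein of activated fibroblasts, rose by 2.58 ± 0.16. Mfap5, of elastic microfibrils, read 2.18 and 2.28 against 4.11 and 4.13 (-1.89 ± 0.24, adjusted p = 7.2e-06, limma). The proteoglycan Lum, at 2.68 and 2.95 against 6.07 and 6.14, was uncalled with its wide standard error (-3.29 ± 1.48, adjusted p = 0.17, limma), and Postn, or periostin, was uncalled too (-0.37 ± 1.00, adjusted p = 0.9, limma). Of 20 matrix proteases and inhibitors, 0 were called higher and 4 lower, with a median of -0.50, and 2 to 4 were lower with a day 7 array left out. Timp3, an inhibitor held in the matrix, read 5.91 and 6.0 in MGT and 7.47 and 7.63 in LacZ (-1.59 ± 0.26, adjusted p = 0.0002, limma), and the gelatinase Mmp2 read 3.73 and 3.75 against 5.00 and 4.97 (-1.24 ± 0.20, adjusted p = 0.00012, limma).

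Markers of other cells a heart preparation can hold also differed. Cardiomyocyte markers, 13 of 16 called higher and 0 lower, had a summed level of 10.35 and 10.23 in MGT, 5.85 and 5.86 in LacZ, 4.92 and 4.78 in CF D0 and 11.85 and 11.96 in neoCM. A sum is set by its brightest members, and the median level of the list put LacZ under CF D0 instead. That median was 2.04 and 2.20 in MGT, -3.59 and -3.37 in LacZ, -0.03 and -0.23 in CF D0 and 7.75 and 7.89 in neoCM. Of 18 endothelial markers, 0 were called higher and 7 lower, with a median of -0.99, and 4 to 5 were lower with a day 7 array left out. Their summed level was 4.86 and 4.75 in MGT, 5.14 and 4.99 in LacZ and 6.29 and 6.31 in CF D0. Egfl7, secreted by vessels, read 0.02 and 0.16 in MGT and 2.65 and 2.17 in LacZ (-2.33 ± 0.27, adjusted p = 3e-06, limma). Robo4, a vessel guidance receptor, stood at -4.77 and -4.45 against -1.81 and -1.76 (-2.83 ± 0.57, adjusted p = 0.0014, limma). Cldn5, the endothelial tight junction claudin, was not above background in MGT and at least 5.86-fold lower there, a call that ended with normexp and the 75th percentile (adjusted p = 0.13). For Kdr, another marker of the list, the probe used changed by 0.04 and its other kept probe by 2.72. The part of endothelial cells in the day 7 differences was not tested.

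Of 22 macrophage markers, 0 were called either way by limma and 0 had an unadjusted p under 0.05, with a median of 0.09. Their summed level was 6.96 and 7.39 in MGT and 7.12 and 6.95 in LacZ, so the groups overlapped. Smooth muscle and pericyte markers gave 1 call each way of 16, or 1 higher and 2 lower without the iPSC2-CM D29 arrays, with summed levels of 9.18 and 9.05 against 9.14 and 9.03. The pericyte proteoglycan Cspg4 rose by 1.95 ± 0.26. Epicardial markers gave 3 higher and 2 lower of 11, or 0 to 1 and 0 to 2 with a day 7 array left out and 3 and 4 without the iPSC2-CM D29 arrays. Among those lower was Wt1, a factor of the epicardium, at 2.48 and 2.47 in MGT and 3.75 and 3.68 in LacZ (-1.24 ± 0.30, adjusted p = 0.0067, limma). Its call was lost without LacZ replicate 1 (adjusted p = 0.051). Of 13 other leukocyte markers 1 was called higher and 1 lower, or 1 and 2 without the iPSC2-CM D29 arrays. The lower gene, S100a9, a neutrophil protein, was above background only in LacZ replicate 1, at -0.56 beside -7.43 in replicate 2, and without that array its change was -0.72 (adjusted p = 0.65, limma). Of 5 erythroid and 8 adipocyte markers 0 were called by limma, with 1 unadjusted p under 0.05 in each list, and of 8 Schwann cell markers 1 was called higher and 0 in the fits with a day 7 array left out. Without the iPSC2-CM D29 arrays 1 erythroid and 1 Schwann cell marker were called lower.

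Interferon response genes all lay on the lower side without a call. Of 28 tested, limma called 0, while 11 had an unadjusted p under 0.05, all 28 changes were negative and the median was -0.86 against -0.07 for all genes. Without the iPSC2-CM D29 arrays 8 were called lower. The summed level of the list was 7.80 and 7.77 in MGT and 8.65 and 8.72 in LacZ. Ifit3, an antiviral effector, read 2.70 and 2.73 in MGT and 4.67 and 4.60 in LacZ, with no overlap (-1.92 ± 0.69, adjusted p = 0.073, limma). Isg15, a ubiquitin-like modifier, read 6.24 and 6.22 against 6.99 and 7.13 (-0.83 ± 0.30, adjusted p = 0.071, limma). The list's median was -0.88 at day 3, -1.20 at day 5, 0.11 at day 10 and 0.30 at day 14, and 15 of the list were called lower at day 5, where 3.33% of all genes were, against 0 at day 10, where 3.38% were. Whether the day 7 values of the list differ from those of other days was tested gene by gene, and 0 of the 28 were called against day 5 or day 10, where 0.474% and 0.0567% of all genes were called either way. Of 25 cytokines, chemokines and complement genes, 1 was called higher and 4 lower, or 1 and 8 without the iPSC2-CM D29 arrays. With a day 7 array left out, 1 to 3 were lower. The neutrophil chemokine Cxcl5 read -0.83 and -0.00 in MGT and 1.86 and 2.01 in LacZ (-2.36 ± 0.47, adjusted p = 0.0013, limma). Complement C4b was lower at -2.23 ± 0.57 (adjusted p = 0.0097, limma), a call lost without MGT replicate 1 (adjusted p = 0.08) and without LacZ replicate 2 (adjusted p = 0.079).

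In the TGF-beta and BMP pathway 5 of 30 genes were called higher and 5 lower, with a median of -0.29. Ltbp1, which stores latent TGF-beta in the matrix, read 4.09 and 3.84 in MGT and 0.24 and 0.37 in LacZ (3.66 ± 0.40, adjusted p = 1.3e-06, limma). The BMP antagonist Grem1 stood at 1.47 and 1.55 against -1.30 and -1.45 (2.89 ± 0.64, adjusted p = 0.0035, limma). The direct BMP target Id1 was lower, at 1.31 and 1.44 against 3.73 and 3.46 (-2.22 ± 0.18, adjusted p = 2.5e-08, limma), as was Id3 at 3.62 and 3.59 against 5.12 and 5.17 (-1.54 ± 0.19, adjusted p = 4.7e-06, limma). The ligand Bmp4 read 3.49 and 3.54 against 4.72 and 4.93 (-1.31 ± 0.17, adjusted p = 8.7e-06, limma).

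Wnt pathway genes moved both ways, with 6 of 30 called higher and 5 lower and a median of -0.40. Without the iPSC2-CM D29 arrays, 6 and 8 were called, and with a day 7 array left out 3 to 5 and 3. The secreted inhibitor Wif1 read 2.94 and 2.43 in MGT and -6.17 and -7.47 in LacZ, where it was not above background. It was at least 392-fold higher (adjusted p = 4.3e-11, limma), while other secreted antagonists were lower: Sfrp1 read -2.73 and -2.36 against 0.84 and 0.80 (-3.37 ± 0.66, adjusted p = 0.0011, limma). Sfrp2, at -2.75 and -2.76 against 1.15 and 1.32, was called at -3.99 ± 1.19 (adjusted p = 0.028, limma) but in no fit with a day 7 array left out, where its adjusted p ran from 0.11 to 0.13. The ligand Wnt5b stood at 2.28 and 2.28 against -1.12 and -1.17 (3.42 ± 0.29, adjusted p = 4e-08, limma). Wnt4, another ligand, went the other way, at -5.15 and -5.12 against -2.13 and -2.38 (-2.88 ± 0.26, adjusted p = 9.9e-08, limma). The nuclear partner of beta-catenin Lef1 rose by 2.25 ± 0.39.

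Notch pathway genes had the lowest median of the signalling lists, -1.05, with 1 of 15 called higher and 5 lower. The gene called higher was lost in 3 of the 4 fits with a day 7 array left out. The ligand Jag1 read 0.82 and 0.81 in MGT and 2.63 and 2.75 in LacZ (-1.87 ± 0.12, adjusted p = 5.1e-10, limma). The receptor Notch3, also a pericyte marker, stood at 0.80 and 0.64 against 2.71 and 2.65 (-1.96 ± 0.14, adjusted p = 3.5e-09, limma). Of the target genes, Heyl read -1.02 and -1.52 against 0.35 and 0.58 (-1.73 ± 0.17, adjusted p = 2.3e-07, limma), beside Hey2 above. In all 3 the MGT arrays lay under the LacZ arrays, and each held its call with any day 7 array left out.

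Few cell cycle genes were called. Of 34 tested, 1 was called higher and 0 lower, with a median of 0.03. The gene called was Cenpa, the centromeric histone variant, at 2.93 and 2.96 in MGT and 0.77 and 0.81 in LacZ (2.15 ± 0.27, adjusted p = 9.2e-06, limma). The proliferation marker Mki67 read 2.79 and 2.70 against 2.59 and 2.58 (0.16 ± 1.06, adjusted p = 0.96, limma). Of 16 cell cycle inhibitors and p53 targets, 0 were called higher and 2 lower, or 0 to 1 lower with a day 7 array left out and 1 higher and 3 lower without the iPSC2-CM D29 arrays. Cdkn2b, an inhibitor of the G1 kinases induced by TGF-beta, stood among the lower genes, at 2.29 and 2.44 against 4.03 and 4.23 (-1.77 ± 0.46, adjusted p = 0.011, limma), and its call was lost without MGT replicate 1 (adjusted p = 0.086), MGT replicate 2 (adjusted p = 0.052) or LacZ replicate 2 (adjusted p = 0.086).

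Outside the lists, the 10 largest called rises had changes from 6.99 to 7.84. Col22a1, a collagen of muscle-tendon junctions, read 2.60 and 2.42 in MGT and -5.46 and -5.20 in LacZ (7.84 ± 0.41, adjusted p = 3.5e-11, limma). Ppp1r3c, which directs a phosphatase to glycogen, stood at 4.23 and 4.21 against -2.97 and -2.98 (7.2 ± 0.24, adjusted p = 1.3e-13, limma). Rxfp1, the relaxin receptor, was at least 216-fold higher, the ADP-ribosyltransferase Art1 at least 65.7-fold and the adenosine receptor Adora1 at least 48.7-fold. Sphkap, an anchor of protein kinase A, changed by 7.71 ± 0.53, Efhd1, a mitochondrial calcium-binding protein, by 7.24 ± 0.50, and Rab3b, a GTPase of vesicle release, by 6.99 ± 1.04. Col10a1, the collagen of cartilage growth plates, rose by 7.18 ± 0.86.

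The 10 largest called falls ran from -4.91 to -3.79, and 7 were not above background on either MGT array. Smoc1, a matricellular BMP regulator, read -4.22 and -3.81 in MGT and -0.00 and 0.18 in LacZ (-4.11 ± 0.37, adjusted p = 1.1e-07, limma). Ddx4, a helicase known from germ cells, stood at -5.10 and -4.10 against -0.70 and -0.42 (-4.04 ± 0.40, adjusted p = 4e-07, limma), and the adhesion protein Pcdh10 at -6.07 and -5.33 against -2.0 and -1.83 (-3.79 ± 0.60, adjusted p = 0.00012, limma). Sox18, a factor of vessel and lymphatic endothelium, was at least 4.84-fold lower in MGT, and the neuropeptide precursor Nts at least 7.8-fold. Gimap5, a GTPase of lymphocytes, and Vstm2a were at least 4.7-fold and 4.07-fold lower, calls that ended with normexp and the 75th percentile, where the changes were -0.94 and -0.94. Bhlhe22, a transcription factor of neurons, was at least 3.84-fold lower, but not past the threshold without LacZ replicate 1 (adjusted p = 0.085). Ldb2 and Fmo1, at least 8.18-fold and 4.76-fold lower, were called in none of the fits with a day 7 array left out (adjusted p of 0.11 to 0.18 for Ldb2 and 0.11 to 0.13 for Fmo1).

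The calls at day 7 overlapped those of the neighbouring days. At day 10, 1018 genes (5.24%) were called higher and 657 (3.38%) lower. Of the day 7 genes called higher, 838 were also called higher at day 10, 81.3% of the day 7 and 82.3% of the day 10 list. For genes called lower the count was 438, or 65.9% and 66.7%. At day 5, 954 (4.91%) were called higher and 647 (3.33%) lower. The shared counts with day 5 were 716 higher (69.4% of day 7 and 75.1% of day 5) and 392 lower (58.9% and 60.6%). No array enters more than 1 of these contrasts. On each of days 5, 7 and 10 the MGT and LacZ arrays lay on the same slide, with day 7 and day 10 together and day 5 on another. At day 14 MGT and LacZ lay on different slides, so slide and MGT effect cannot be told apart there.

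The difference between days was tested directly. Between day 5 and day 7 the MGT effect became more positive for 63 genes (0.325%) and more negative for 29 (0.149%). Of the 63, 49 were also called higher at day 7. Myh6 was among them: it read 3.23 and 2.99 in MGT and -1.95 and -1.83 in LacZ at day 5, and its effect went from 5.00 at day 5 to 7.67 at day 7 (difference 2.68 ± 0.39, adjusted p = 0.0023, limma). That call held with any array of the 2 days left out. Pvalb, a calcium buffer of fast muscle, went from 0.95 to 2.69 (1.74 ± 0.30, adjusted p = 0.0069, limma), though not past the threshold without MGT D7 replicate 2 (adjusted p = 0.074). Gsta1, a glutathione transferase, went from 2.12 to 6.84 (4.73 ± 0.66, adjusted p = 0.0019, limma), with LacZ values of -5.13 and -4.12 at day 7 and -1.52 and -1.42 at day 5. Pln moved from -0.16 to 3.67, but was above background only in MGT D7 among the 4 groups, so its fitted difference of 3.84 ± 0.68 (adjusted p = 0.01, limma) depends on dim values. It was lost without MGT D7 replicate 2, LacZ D7 replicate 2 or LacZ D5 replicate 2, with adjusted p up to 0.066. Among genes whose effect became smaller, Col12a1 went from 2.68 to 1.29 (-1.38 ± 0.26, adjusted p = 0.017, limma), with LacZ arrays at 1.32 and 1.32 at day 5 and 2.39 and 2.27 at day 7. Its call stood in only 2 of the 8 fits with an array left out (adjusted p up to 0.11).

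Between day 7 and day 10 only 11 genes (0.0567%) were called, 9 of them (0.0464%) with a more positive and 2 (0.0103%) with a more negative effect at day 7. Of those 9, 7 were not called at day 7. The genes with a more negative effect, Myh6 and Cox8b, had larger effects at day 10. The Myh6 effect was 7.67 at day 7 and 9.88 at day 10, where MGT read 7.21 and 7.14 and LacZ -2.79 and -2.62 (-2.20 ± 0.39, adjusted p = 0.039, limma). For Cox8b it was 1.59 at day 7 and 3.43 at day 10, with LacZ at -2.66 and -2.67 on day 7 and -4.01 and -4.27 on day 10 (-1.84 ± 0.30, adjusted p = 0.025, limma). Each of these calls was lost in most fits with an array left out: 2 of 8 kept Myh6 and 3 of 8 kept Cox8b, with adjusted p up to 0.26 and 0.14. The count itself ran from 1 to 92 with an array left out, the 92 without LacZ D10 replicate 1.

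**Figure D4:**
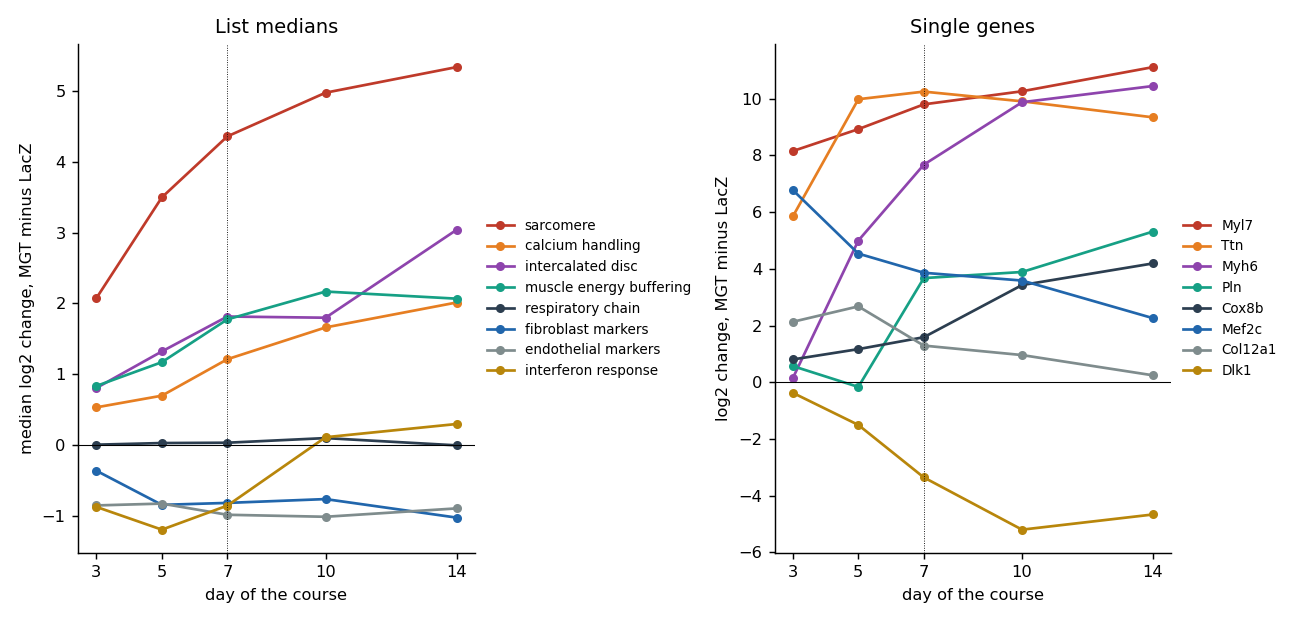
The left panel gives the median log2 change, MGT minus LacZ, of 8 gene lists on each day of the course, and the right panel the change of 8 genes, with a dotted line at day 7. The sarcomere median climbs from 2.07 at day 3 to 4.36 at day 7 and 5.34 at day 14, Mef2c declines, and the interferon median crosses 0 between day 7 and day 10. At day 14 the MGT and LacZ arrays lay on different slides.

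The newborn cardiomyocyte arrays were set beside the day 7 calls to see which genes were called in both. Their erythroid markers summed to 9.70 and 9.81, against 0.42 and -0.27 in CF D0. Fibroblast markers summed to 10.16 and 10.13 in neoCM and 10.11 and 10.07 in CF D0, with median levels of 2.20 and 2.20 against 3.18 and 3.06. The part of other cells in the neoCM calls was not tested. Between neoCM and CF D0, 4387 genes (22.6%) were called higher and 4385 (22.6%) lower, but these groups lay on different slides, so slide and cell type cannot be told apart there. Of the genes called higher in MGT at day 7, 645 were also higher in neoCM, 62.6% of the day 7 list and 14.7% of the neoCM list, and 99 (9.60%) were lower. Of those called lower at day 7, 237 (35.6% of the day 7 and 5.40% of the neoCM list) were lower in neoCM and 187 (28.1%) higher. List by list, the share of neoCM genes called higher at day 7 differed widely: 24 of 30 for the sarcomere, 12 of 19 for calcium handling, 10 of 13 for the intercalated disc, 9 of 13 for muscle energy buffering, 7 of 15 for channels, 6 of 23 for fatty acid oxidation, 2 of 15 for cardiac transcription factors and 0 of 18 for the respiratory chain. The transcription factors in that count of 2 were Hopx and Myocd. For skeletal muscle genes the share was 11 of 15.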

How the data were processed

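Total RNA of 34 samples, 2 in each of 17 groups, was hybridised to Agilent arrays in 1 colour. The authors deposited scanner output from Feature Extraction 10.7.3.1 (protocol GE1_107_Sep09), per the file headers, whose processed green intensity per spot is already background-subtracted. They also deposited log2 values, with limma named in the submitters' processing notes, and these served as an alternative: every column correlated with its scanner values at 0.982 or more, so the direction is known, while the medians of 7.49 to 7.52 show that the arrays were brought to a common centre by a step not given in the sources used here. Of 59305 spots, flagged outliers were dropped, spots of 1 probe were averaged, and log2 intensity minus the array's 75th percentile was taken. A probe was kept (43382 of 55681) if some group had it well above background on each of its arrays, and the brightest probe stood for a gene. Probe names came from the RefSeq table of GRCm38.p6, of which 26050 matched by accession, 3205 by symbol and 930 by older symbol, while 25496 had no gene. limma 3.58.1 (R 4.3.3) fitted 17 group means (17 residual degrees of freedom) with Benjamini-Hochberg adjustment over 19412 genes, after a test on simulated data. The number of arrays limits the precision. A gene list's summed level is the log2 of its members' added intensities. Genes named are members of 37 lists, with the 10 called rises and falls of largest size outside them and up to 5 in each direction for the tests between days. Some genes that the rule names are not reported here. The comparison, the lists and the naming rule were chosen with earlier results of these data known. Alternatives changed the background correction, normalization, filter, probe rule, arrays fitted, spread, replicate block and each array in turn. Groups not compared entered only the spread, and MGT and LacZ of day 7 lay on the same slide and scan.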

Additional observations from a re-analysis of the deposited data

Results flagged for a closer look

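These results stand out because the MGT effect differed between days in limma's test of that difference (adjusted p under 0.05 and at least 2-fold), given as the day 7 effect minus the other day's, or because they lie in probes without a gene name. Against day 5, muscle genes with a larger effect at day 7 were Myh6 (2.68), Mybphl (3.62), Myl1 (2.64), Pvalb (1.74) and Pln (3.84), and Col12a1 had a smaller one (-1.38). Mybphl, an atrial myosin-binding protein, read -1.05 and -0.91 in MGT at day 7, was not above background in LacZ on either day, and was called in 0 of the 8 fits with an array left out (adjusted p from 0.067 to 0.22). Myl1, also not above background in LacZ, was called in 2 of 8 (adjusted p up to 0.26). Outside the lists, Gsta1 differed by 4.73 and Defb19, a defensin, by 4.50, and both calls held in 8 of 8 such fits, as did that of Gimap5 at -3.35. Iqsec3 differed by 5.33, above background only in MGT at day 7, and was called in 2 of 8.

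Several calls rest on the other day's arrays, since no day 7 array was above background. Against day 5 these were Kcnc2 (5.01) and Olfr982 (4.66), above background in LacZ at day 5, and Htr1d (-5.35), Il23a (-3.89) and Vmn2r25 (-3.88), above background in MGT at day 5. Those day 5 levels were low, from -3.76 to -1.33. Foxe3 (-5.72) was above background in MGT on both days, with a day 7 effect of -0.16 and a day 5 effect of 5.56. Sim1 (-4.77) was above background in both LacZ arrays at day 7 and in 1 MGT array at day 5.

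Against day 10, Myh6 differed by -2.20 and Cox8b by -1.84. The others, Unc13a (5.89), Gngt1 (4.83), Olfr102 (4.54), F8a (4.07) and Cysltr2 (3.57), were above background on both LacZ arrays at day 10. Their levels there were low, from -4.13 to -1.63, and of these genes only Unc13a was above background on a day 7 array. Only Gngt1 among them kept its call in 8 of 8 fits with an array left out.

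Of 17748 probes without a gene name, 704 (3.97%) were called at day 7, 424 higher and 280 lower, with changes from -4.80 to 9.81.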

How the results depend on the processing

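The count of genes called between MGT and LacZ at day 7 (1696) stayed within 1.5 times under all 18 other settings, and that of neoCM against CF D0 (8772) under the 16 run for it. The day 7 counts ran from 1232 with both normexp correction and quantile normalization to 2399 with array weights. The 92 genes whose effect differed between day 7 and day 5 became 59 with quantile normalization, 44 with normexp and the 75th percentile, 54 on the authors' log2 values, 351 on the arrays compared alone, 325 on the 20 course arrays, 597 with array weights and 303 without the iPSC2-CM D29 arrays, and 35 to 95 with an array left out. The 11 between day 7 and day 10 became 2 with normexp and the 75th percentile, 2 on the authors' log2 values, 0 on the arrays compared alone (limma; 1552 had an unadjusted p under 0.05), 67 on the 20 course arrays, 86 with array weights, 41 without the iPSC2-CM D29 arrays and 17 without the LacZ D14 arrays, and 1 to 92 with an array left out. Leaving out a day 7 MGT array gave the 1. Leaving out the iPSC2-CM D29 or LacZ D14 arrays was chosen after seeing the data. Fits on fewer arrays take their spread from fewer samples. What moved the counts was not tested for any setting. The labels do not say whether same-numbered samples were paired. Over all genes their deviations correlated at -0.03 to 0.13 over the 5 days and 0.05 at day 7, which cannot show whether single genes were paired. With the replicate block 2199 genes were called at day 7. Between day 7 and day 5 it gave 200 genes, of which 55 were among the 92.

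Of 164 genes named, 130 were called at day 7, 115 of them also with any of the 4 day 7 arrays left out, and 23 of the 130 lost the call under at least 1 of the 18 settings. The change of Nppc, dim on every day 7 array, turned direction to 0.0691 (uncalled) with normexp and the 75th percentile, the only turn among these genes that involved a call. Of 74 list counts, 42 stayed within 1.5 times under every setting. Signal over background limits the genes not well above it on 1 side, whose folds are bounds.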

Other observations

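Imprinted and growth factor genes leaned to the lower side in MGT. Of 19 tested, 6 were called lower and 1 higher, with a median of -0.80 against -0.07 for all genes, and 4 to 5 were lower with a day 7 array left out. Dlk1, an imprinted Notch-like protein of fetal tissue, read -2.43 and -2.53 in MGT and 0.87 and 0.87 in LacZ. The groups lay 10.2-fold apart (-3.36 ± 0.60, adjusted p = 0.00044, limma), and the effect was -1.5 at day 5 and -5.20 at day 10. Its neighbour in the imprinted cluster, the long non-coding RNA Meg3, stood at 3.53 and 3.56 against 4.95 and 4.95 (-1.41 ± 0.16, adjusted p = 1.7e-06, limma). The imprinted RNA H19 read 1.03 and 1.00 against 2.64 and 2.76 (-1.68 ± 0.35, adjusted p = 0.0019, limma). The zinc finger factor Plagl1, also imprinted, read 3.22 and 3.06 against 4.74 and 4.57 (-1.52 ± 0.25, adjusted p = 0.00022, limma). Other probes gave smaller changes, down to -0.59 among the 7 of H19 and -0.29 among the 4 of Plagl1. In neoCM the means were 3.37 for Dlk1, 4.84 for Meg3, 6.67 for H19 and 6.10 for Plagl1, above both day 7 groups except for Meg3, which LacZ exceeded. The gene called higher was Igfbp5, a secreted binder of insulin-like growth factors, at 4.56 and 4.48 against 2.63 and 2.55 (1.93 ± 0.13, adjusted p = 2.4e-09, limma). Its relatives Igfbp3 and Igfbp4 were lower, at -3.35 ± 0.96 and -1.84 ± 0.46, but the first was called in none and the second in 1 of the fits with a day 7 array left out.

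Among 16 immediate early genes 2 were called lower and 0 higher, or 3 and 1 without the iPSC2-CM D29 arrays, with a median of -0.22. Klf2, a factor induced by shear stress in vessels, read 2.41 and 2.38 in MGT and 4.01 and 4.01 in LacZ (-1.62 ± 0.38, adjusted p = 0.005, limma). Klf4, a related factor, read 2.54 and 2.67 against 3.65 and 3.81 (-1.13 ± 0.17, adjusted p = 5e-05, limma), a call that ended on the authors' log2 values, where the change fell short of 2-fold. Of 14 antigen presentation genes 0 were called by limma, 4 had an unadjusted p under 0.05, all of them lower, and the median was -0.34, and the count was also 0 under the 18 other settings.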
